A study of Saccharomyces cerevisiae with 10 samples.

Results

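The 9 genes described here are the URA3 marker and the genes that make, import or control pyrimidines around it in budding yeast: YKL216W (URA1), YJL130C (URA2), YEL021W (URA3), YLR420W (URA4), YML106W (URA5), YKL024C (URA6), YMR271C (URA10), YBR021W (FUR4) and YLR014C (PPR1). They were picked by systematic name out of 7218 quantified targets, with their estimated counts in all 10 libraries in view. Their levels and differences are therefore a description, and no p-value is given for any of them. All 9 were found, and all 9 passed the filter on low counts. The 10 messenger RNA libraries came from BY4743, a laboratory diploid of Saccharomyces cerevisiae, harvested from YPD, a rich medium, in mid-log phase at an optical density near 0.5. There were 2 replicates each of [ESI+] diploids, hos2Δ homozygous diploids, set3Δ homozygous diploids, snt1Δ homozygous diploids and naive diploids. [ESI+] is a heritable, prion-like state, and HOS2, SET3 and SNT1 encode subunits of the Set3 histone deacetylase complex, so the series sets the [ESI+] transcript profile beside loss of that complex. The labels do not say whether replicates were separate isolates or cultures, and p-values then measure only the spread between these libraries.

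Uridine monophosphate, the precursor of all pyrimidine nucleotides, is built in yeast by a chain of enzymes encoded by URA2, URA4, URA1, URA5 or URA10, and URA3, in that order. Ppr1 is a zinc-cluster activator that binds upstream of several of these genes and responds to the early intermediates dihydroorotate and orotate, which build up when the later steps are short. BY4743 lacks URA3 on both chromosome copies as a selectable auxotrophic marker. It also carries deletions in HIS3 and LEU2 on both copies and of LYS2 and MET15 on 1 copy each. Without URA3 a pyrimidine source has to come from the medium, and Fur4 is the permease for uracil. All 5 groups are given as this background. The labels list no URA3 allele or plasmid for any group, so whether the [ESI+] diploids lack URA3 was not known.

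The pathway genes that carry Ppr1's recognition letters were looked up in the reference genome. The letters searched were CGGNNNNNNCCG, which read the same on both strands, in the 300 bases before each start codon of build R64. They occurred in 77 of 6002 such windows (1.28%), among them 3 of the 9 pathway genes, URA1 with a pair of matches, URA3 and URA4. Each stretch below is the plus strand of R64 with 20 bases on either side, and capitals mark the match. The stretches are chrXI:24983-25034 and chrXI:25014-25065 for URA1, which overlap each other, chrV:115995-116046 for URA3 and chrXII:963635-963686 for URA4.
URA1, distal match: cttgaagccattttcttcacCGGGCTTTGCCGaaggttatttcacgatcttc
URA1, proximal match: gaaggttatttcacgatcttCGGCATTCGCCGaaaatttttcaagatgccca
URA3: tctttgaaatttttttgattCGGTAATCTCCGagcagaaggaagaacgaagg
URA4: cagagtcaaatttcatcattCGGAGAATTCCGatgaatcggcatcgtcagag
The matches lay 212 to 201 and 181 to 170 bases before the URA1 start codon, 152 to 141 before that of URA3 and 130 to 119 before that of URA4. The stretches are reference sequence. A match is a description of the letters, and the strain's own sequence was not read.

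Total estimated counts ran between 8327730 and 80651800 per library, with ERCC spike-in RNA at 0.946 to 5.19% and ribosomal RNA at 8.67 to 28.1% of them. Spike-in and ribosomal shares were farthest apart within [ESI+], at 0.946 and 5.19% for spike-ins and 28.1 and 8.67% for ribosomal RNA in replicates 1 and 2. Each deleted gene was at or near 0 in its own libraries, with HOS2 at 0.0375 and 0 CPM, SET3 at 0.0278 and 0 CPM and SNT1 at 0.0554 and 0.263 CPM. CPM here are counts-per-million scaled by TMM, a normalization that assumes most genes do not differ. As a check of the diploid label, 9 genes that a/alpha cells keep low, such as the pheromone gene MFA1 and the receptor gene STE2, summed to between 12.9 and 33.9 CPM per library, the highest sum being in [ESI+] replicate 2. At most 1 of the 9 was at 0 in any library. For the 9 pathway genes every estimated count was whole to within 0.01, as for targets that share no reads with another.

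URA3 (chrV:116167-116970, plus strand, coding sequence), which encodes orotidine phosphate decarboxylase, the last enzyme of the chain, had reads in the [ESI+] libraries far beyond those of any other library. Its estimated counts were 259 and 2260 in [ESI+] replicates 1 and 2, 19 and 2 in hos2Δ, 43 and 2 in set3Δ, 9 and 5 in snt1Δ, and 7 and 4 in naive diploids. In CPM these were 3.89 and 25.6 in [ESI+], 0.238 and 0.104 in hos2Δ, 0.597 and 0.227 in set3Δ, 0.499 and 0.328 in snt1Δ, and 0.244 and 0.312 in naive diploids. Both [ESI+] libraries thus stood above all 8 others, whose CPM ran from 0.104 to 0.597. In such bulk RNA, more cells with a transcript and more of it per cell cannot be told apart. The exact Poisson 95% intervals, which cover counting error only, were 3.43 to 4.39 and 24.6 to 26.7 CPM in [ESI+] replicates 1 and 2, against 0.0983 to 0.504 and 0.0849 to 0.798 CPM in naive replicates 1 and 2.

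The pair of [ESI+] libraries also differed from each other at URA3. Replicate 2 was 6.59-fold above replicate 1, a gap well outside their counting intervals. Replicate 1 stood 14.0-fold and replicate 2 stood 92.2-fold above the naive mean, and replicate 1 was 6.51-fold above the highest library of another group, set3Δ replicate 1. The group mean was 14.8 ± 15.4 CPM in [ESI+] and 0.278 ± 0.0475 CPM in naive diploids (SD, n = 2 each). The fitted log2 fold change was 5.77 ± 0.97 (SE). It was 3.83 without [ESI+] replicate 2 and 6.54 without [ESI+] replicate 1.

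Reads at genes that are silent in the other groups also differed between the [ESI+] libraries. Silent nuclear genes were taken as those of at least 300 bases that averaged less than 0.2 CPM per kb in libraries of the other groups, with [ESI+] never counted among those others, which left 204 genes for the [ESI+] libraries. Their median was 0.302 and 1.43 CPM per kb in [ESI+] replicates 1 and 2, and between 0 and 0.0882 in the other 8 libraries, each over the silent genes of its own group. On the same scale URA3 was at 4.84 and 31.9 CPM per kb in [ESI+] replicates 1 and 2, and none of the 204 silent genes reached it in either library. Multiplied by its length, the silent-gene median would correspond to 16.2 and 101 reads at URA3, against the 259 and 2260 counted. The ratio of replicate 2 to replicate 1 was 4.74 for the silent-gene median and 6.59 for URA3. With the silent-gene level subtracted from every gene, the [ESI+] log2 fold change of URA3 was 6.18.

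Targets of the mitochondrial genome moved between libraries much as URA3 did. Over 51 of them the median was 2.23 and 12.1 CPM per kb in [ESI+] replicates 1 and 2, a ratio of 5.42, and 0 in each of the other 8 libraries. The 5 genes whose centred log2(CPM + 0.5) profile over the 10 libraries lay nearest to that of URA3 were all mitochondrial: Q0255, BI3, ATP6, AI3 and BI4. Their root mean square differences from it ran from 0.261 to 0.358, against a root mean square of 1.62 for the URA3 profile itself. Q0255 was at 3.23 and 17.6 CPM in [ESI+] and 0.0349 and 0 CPM in naive diploids, and ATP6, a subunit gene of ATP synthase, at 2.97 and 14.5 CPM in [ESI+] and 0.175 and 0 CPM in naive diploids. BI3, AI3 and BI4 share reads with other targets. The part of these library differences in the URA3 values was not tested.

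**Figure D1:**
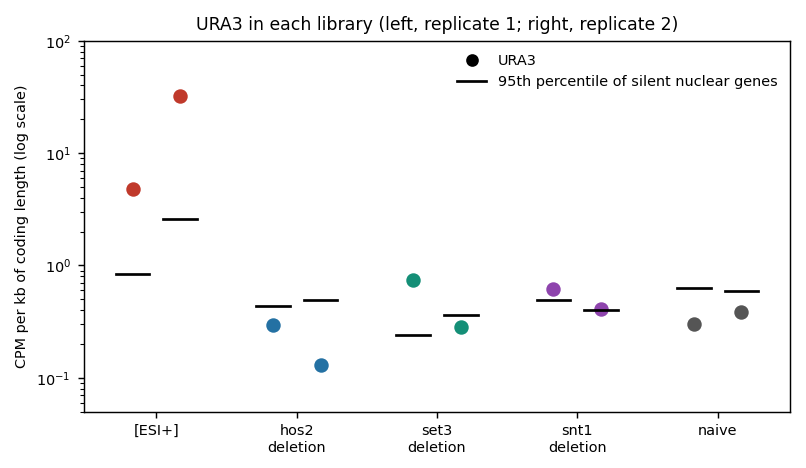
URA3 in each of the 10 libraries, in CPM per kb of coding length on a log axis, with a black line at the 95th percentile of silent nuclear genes in the same library. Both [ESI+] points, at 4.84 and 31.9, lie above their lines at 0.846 and 2.60, while those of hos2Δ and naive diploids lie below theirs. Of the others set3Δ replicate 1, at 0.743, lies above its line at 0.242, and both snt1Δ libraries, at 0.621 and 0.408, lie above theirs at 0.494 and 0.401.

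Outside [ESI+], URA3 rested on few reads. The 6 deletion libraries held 80 URA3 reads together and the naive ones 11. In hos2Δ both libraries lay below both naive ones, with a log2 fold change of -0.43 ± 1.17 (SE). In set3Δ they overlapped naive, at 0.90 ± 1.08, and in snt1Δ both lay above, at 0.63 ± 1.20. Each of these differences was smaller than its SE, and the counting intervals overlap. In set3Δ replicate 1, the deepest library, URA3 reached 0.743 CPM per kb with 1 silent gene at or above it, and in naive replicate 1 it reached 0.304 CPM per kb with 37 silent genes at or above it.

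Per length, URA3 stayed below URA1, URA2, URA4, URA5 and URA6 in every library, and stood above URA10 in [ESI+] replicate 2 alone (45.4 against 9.83 TPM). TPM (transcripts-per-million), which divides by length, put URA3 at 6.06 and 45.4 in [ESI+] and 0.279 and 0.258 in naive diploids. That was 3.86 and 28.1% of URA4 and 1.67 and 11.2% of URA5 in [ESI+], against 0.345 and 0.371% of URA4 and 0.102 and 0.124% of URA5 in naive diploids. In naive diploids the order by TPM was URA1 (278 and 205) and URA5 (275 and 208), then URA6 (104 and 111), URA4 (81.0 and 69.6), URA2 (57.7 and 52.7), URA10 (6.47 and 2.60), FUR4 (4.03 and 2.94), PPR1 (0.995 and 0.632) and URA3. URA1 and URA5 overlapped each other there, as did URA10 and FUR4, while the other neighbours in the order did not.

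With a threshold of 0.05 on the p-value adjusted over all 6390 genes tested (edgeR's quasi-likelihood test, Benjamini-Hochberg), 3 of the 9 genes passed in [ESI+] over naive, where 28.3% of all genes did. URA3 and PPR1 passed as higher, a direction in which 13.9% of all genes passed, and URA6 passed as lower, as 14.5% of all genes did. None of the 9 passed in hos2Δ, where 7.65% of all genes did, in set3Δ (2.50%) or in snt1Δ (0.454%). In the test for any difference among the 5 groups, URA3 and URA6 passed, where 29.0% of all genes did. With DESeq2 none of the 9 passed in any of the 3 deletions either. At an unadjusted p under 0.05 edgeR counted 1 of the 9 in hos2Δ, 2 in set3Δ and 1 in snt1Δ, where 23.4, 17.8 and 9.41% of all genes were under it. Of the calls in [ESI+], that of URA3 was lost without naive replicate 2 (log2 fold change 5.81) and in a fit of the 2 groups alone. URA6 passed in 3 and PPR1 in 2 of the 10 fits without 1 library, with log2 fold changes of -1.04 to -0.57 for URA6 and 0.70 to 1.26 for PPR1, and leaving out either [ESI+] library ended both calls. Since the genes were chosen on these counts, nothing is read from those shares. The 4 comparisons share the naive libraries.

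The median log2 fold change over the 9 genes was 0.25 in [ESI+], 0.19 in hos2Δ, 0.14 in set3Δ and 0.39 in snt1Δ. Over all genes tested it was 0.093, 0.027, 0.0038 and -0.0044 in the same order of groups. Both libraries of a group lay outside both naive ones for 7 of the 9 genes in [ESI+] (72.2% of all genes tested), 5 in hos2Δ (57.1%), 4 in set3Δ (49.0%) and 5 in snt1Δ (30.4%). By CPM, URA1 and URA4 lay above naive in all 4 groups, URA5 above in the 3 deletions and below in [ESI+]. All 4 comparisons use the same naive libraries, and how many of all genes lay above in every group was not counted.

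**Figure D2:**
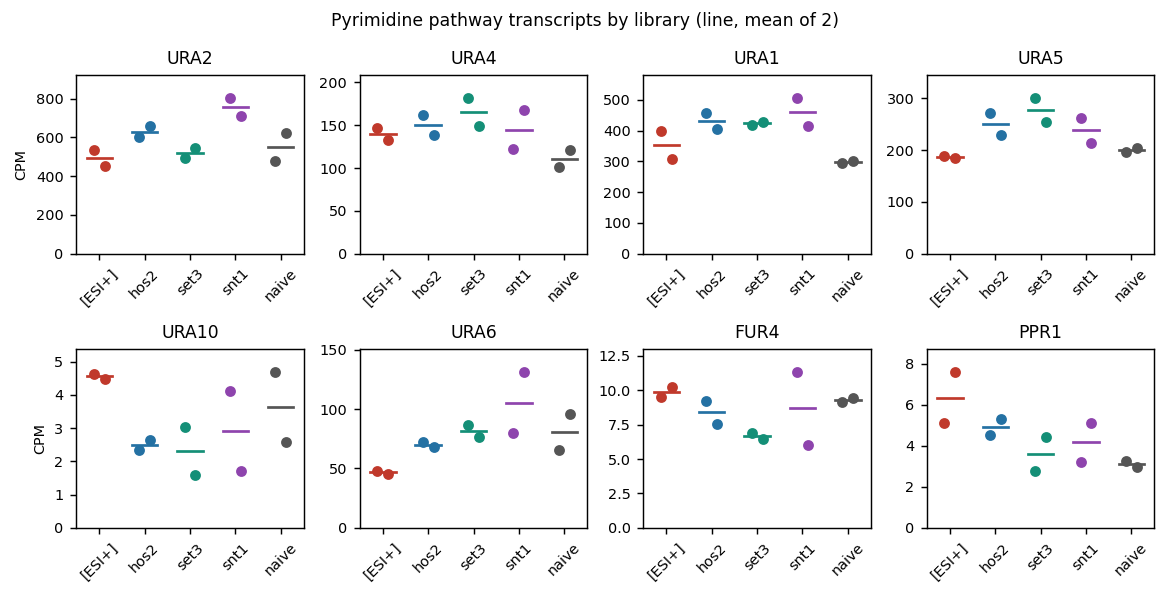
TMM-scaled CPM of 8 pathway genes in each library, as points, with the mean of both replicates as a line, on axes that start at 0. URA1 and URA4 are lowest in naive diploids, URA6 is lowest in [ESI+] at 48.3 and 45.2 CPM, and PPR1 has its highest library, 7.60 CPM, in [ESI+].

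The first step is catalysed by Ura2 (chrX:165723-172367, minus strand), a large protein that joins carbamoyl phosphate synthetase and aspartate transcarbamylase and is inhibited by UTP. URA2 was at 534 and 450 CPM in [ESI+], 602 and 657 CPM in hos2Δ, 494 and 544 CPM in set3Δ, 804 and 713 CPM in snt1Δ, and 478 and 624 CPM in naive diploids. By CPM only the snt1Δ libraries lay wholly above naive, with a log2 fold change of 0.46 ± 0.24 (SE). They also lay above both hos2Δ libraries. In [ESI+], hos2Δ and set3Δ the libraries overlapped naive by CPM, with log2 fold changes of -0.16, 0.19 and -0.086. In TPM, [ESI+] (82.3 and 78.0) and hos2Δ (77.3 and 81.4) lay above naive (57.7 and 52.7). There snt1Δ (74.2 and 49.9) and set3Δ (46.0 and 69.9) overlapped it. On log2(TPM + 1) the median difference of all genes was 0.74 in [ESI+], 0.33 in hos2Δ and -0.23 in snt1Δ. With library sizes from spike-in RNA the snt1Δ value was -0.07, where the median of all genes was -0.66.

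URA4 (chrXII:963785-964879, plus strand) encodes dihydroorotase, which closes the pyrimidine ring. It was at 147 and 133 CPM in [ESI+], 162 and 139 CPM in hos2Δ, 182 and 149 CPM in set3Δ, 122 and 168 CPM in snt1Δ, and 101 and 121 CPM in naive diploids. By CPM all 8 libraries of the other groups lay above both naive ones, in snt1Δ by the narrow margin of 122 to 121 CPM. Among the 4 groups only [ESI+] and set3Δ did not overlap each other by CPM. In TPM the snt1Δ libraries overlapped naive, at 77.1 and 81.3 against 81.0 and 69.6. The log2 fold change was 0.34 ± 0.23 (SE) in [ESI+], 0.45 ± 0.23 in hos2Δ, 0.58 ± 0.23 in set3Δ and 0.39 ± 0.23 in snt1Δ.

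URA1 (chrXI:25215-26159, plus strand) encodes dihydroorotate dehydrogenase, which in this yeast is a cytosolic enzyme that makes orotate. It was at 400 and 306 CPM in [ESI+], 458 and 406 CPM in hos2Δ, 419 and 427 CPM in set3Δ, 506 and 416 CPM in snt1Δ, and 293 and 300 CPM in naive diploids. As for URA4, all 8 libraries were above both naive ones by CPM, [ESI+] replicate 2 by only 306 to 300 CPM. In TPM the snt1Δ libraries overlapped naive for URA1 too, at 378 and 241 against 278 and 205. The log2 fold change was 0.25 ± 0.23 (SE) in [ESI+], 0.54 ± 0.23 in hos2Δ, 0.51 ± 0.23 in set3Δ and 0.64 ± 0.23 in snt1Δ. The 3 deletions overlapped one another, and all of their libraries lay above both [ESI+] ones.

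With library sizes from spike-in RNA the median log2 fold change of all genes was 0.80 in [ESI+], 0.25 in hos2Δ, -0.50 in set3Δ and -0.66 in snt1Δ, a shift from the TMM medians of 0.70, 0.23, -0.50 and -0.66. Relative to that median, URA1 was at 0.31 in [ESI+], 0.54 in hos2Δ, 0.52 in set3Δ and 0.68 in snt1Δ, and URA4 at 0.38, 0.51, 0.63 and 0.42 in the same order of groups. Changed library sizes scale all genes of a library alike, so values relative to the median are no separate check on the TMM ones. Without subtracting the median, URA4 stood at -0.24 in snt1Δ under this scaling and URA1 at 0.025 in set3Δ and 0.016 in snt1Δ. The 5 genes with profiles nearest to the mean of URA1 and URA4 were PRT1, NSA2, RPS1A, EXP1 and FUR1, with root mean square differences of 0.0859 to 0.113 over the 10 libraries, against 0.221 for the mean profile itself. PRT1, a translation initiation factor subunit gene, was at 193 and 165 CPM in [ESI+] and 119 and 144 CPM in naive diploids. FUR1, which encodes the uracil phosphoribosyltransferase that salvages imported uracil, was at 90.4 and 86.3 CPM in [ESI+] and 68.8 and 72.7 CPM in naive diploids.

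Orotate is joined to phosphoribosyl pyrophosphate by a pair of isozymes, Ura5 (chrXIII:56773-57453, plus strand), the major form, and Ura10 (chrXIII:806865-807548, minus strand), the minor one. Their coding sequences, of 681 and 684 bases, were identical at 473 of 693 aligned columns (68.3%), with a longest shared run of 11 bases. URA5 was at 188 and 185 CPM in [ESI+], 272 and 230 CPM in hos2Δ, 301 and 255 CPM in set3Δ, 263 and 213 CPM in snt1Δ, and 197 and 204 CPM in naive diploids. By CPM its deletion libraries lay above naive and its [ESI+] libraries just below. The log2 fold change was -0.11 ± 0.22 (SE) in [ESI+], 0.32 ± 0.22 in hos2Δ, 0.47 ± 0.22 in set3Δ and 0.24 ± 0.22 in snt1Δ. In TPM the [ESI+] libraries lay above naive instead, at 363 and 407 against 275 and 208. On the log2(TPM + 1) scale the median difference of all genes in [ESI+] was 0.74. The snt1Δ libraries, at 293 and 185 TPM, overlapped naive. Under spike-in scaling URA5 was at 0.64 in [ESI+], with the median of all genes at 0.80. It was at 0.58 in hos2Δ, -0.039 in set3Δ and -0.37 in snt1Δ, with medians of 0.25, -0.50 and -0.66.

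URA10 was read far less. It was at 4.64 and 4.49 CPM in [ESI+], 2.35 and 2.64 CPM in hos2Δ, 3.04 and 1.59 CPM in set3Δ, 4.10 and 1.71 CPM in snt1Δ, and 4.68 and 2.57 CPM in naive diploids. By CPM every group overlapped naive, whose replicates themselves lay apart. The log2 fold changes of 0.31, -0.57, -0.59 and -0.33 in [ESI+], hos2Δ, set3Δ and snt1Δ had SEs of 0.44 to 0.46. By TPM both [ESI+] libraries lay above both naive ones, at 8.89 and 9.83 against 6.47 and 2.60. In TPM, URA10 came to 2.45 and 2.42% of URA5 in [ESI+], and to between 0.620 and 2.36% of it in the other 8 libraries, naive diploids having 2.36 and 1.25%.

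Ura6 (chrXI:392526-393140, minus strand) is the uridylate kinase that turns UMP into UDP, the step after the chain. URA6 was at 48.3 and 45.2 CPM in [ESI+], 71.9 and 68.0 CPM in hos2Δ, 86.5 and 76.6 CPM in set3Δ, 79.5 and 131 CPM in snt1Δ, and 65.8 and 95.7 CPM in naive diploids. Both [ESI+] libraries lay below every other library, while the 3 deletions overlapped naive. The log2 fold change was -0.79 ± 0.26 (SE) in [ESI+], -0.21 ± 0.26 in hos2Δ, 0.017 ± 0.26 in set3Δ and 0.38 ± 0.26 in snt1Δ.

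Coding length moved with the difference from naive across all genes, most widely in [ESI+]. The median log2 fold change in [ESI+] was -0.22 over the 1940 genes of up to 699 bases, -0.0063 over the 2205 genes of 702 to 1500 bases and 0.34 over the 2245 longer ones. In the same order of length it was -0.13, -0.039 and 0.21 in hos2Δ and -0.13, -0.032 and 0.12 in set3Δ. In snt1Δ it was -0.041, -0.035 and 0.047. URA6 is 615 bases long, and its [ESI+] log2 fold change was -0.55 and did not pass with each library's trend with length removed. Under spike-in scaling it was 0.12, with the median of all genes at 0.80. In TPM, URA6 was at 107 and 114 in [ESI+] and 104 and 111 in naive diploids, a log2(TPM + 1) difference of 0.042 on a scale where the median of all genes was 0.74. With RLE library sizes and with DESeq2 it was -0.85 and passed. URA2, the longest of the 9 genes at 6645 bases, was at -0.90 in [ESI+] and passed with the length trend removed, against -0.16 without that step. The same step put URA2 at -0.30 in hos2Δ, -0.38 in set3Δ and 0.40 in snt1Δ, where it did not pass.

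Uracil enters the cell through Fur4 (chrII:281443-283344, plus strand), a plasma membrane permease. FUR4 was at 9.49 and 10.2 CPM in [ESI+], 9.23 and 7.57 CPM in hos2Δ, 6.88 and 6.47 CPM in set3Δ, 11.3 and 6.04 CPM in snt1Δ, and 9.15 and 9.42 CPM in naive diploids. By CPM the set3Δ libraries lay below both naive ones, with a log2 fold change of -0.47 ± 0.27 (SE). [ESI+] libraries lay above by a margin of 9.49 to 9.42 CPM, with a log2 fold change of 0.083 ± 0.26, and hos2Δ and snt1Δ overlapped naive. In TPM set3Δ (2.37 and 3.05) overlapped naive (4.03 and 2.94), and [ESI+] lay above it at 5.45 and 6.58.

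PPR1 (chrXII:172268-174982, minus strand), the gene of the pathway's activator, was the least abundant per length after URA3 in naive diploids. It was at 5.11 and 7.60 CPM in [ESI+], 4.55 and 5.34 CPM in hos2Δ, 2.76 and 4.42 CPM in set3Δ, 3.22 and 5.12 CPM in snt1Δ, and 3.28 and 2.96 CPM in naive diploids. [ESI+] and hos2Δ lay above naive, and each group overlapped the next in order of mean. The log2 fold change was 1.02 ± 0.34 (SE) in [ESI+], 0.65 ± 0.34 in hos2Δ, 0.14 ± 0.35 in set3Δ and 0.41 ± 0.35 in snt1Δ. PPR1 is 2715 bases long. Its [ESI+] value was 0.61 with the length trend removed and 0.56 with the silent-gene level subtracted, and it did not pass in either. The part of length and of reads at silent genes in this value was not otherwise tested.

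**Figure D3:**
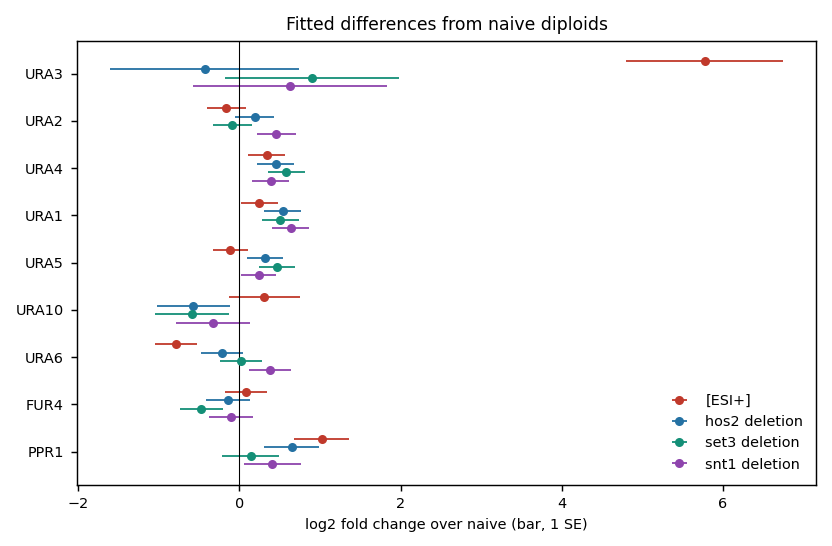
Log2 fold change over naive diploids of each pathway gene in the 4 other groups, with bars of 1 SE. URA3 in [ESI+], at 5.77, stands far to the right, URA1 and URA4 lie right of 0 in all 4 groups between 0.25 and 0.64, and URA6 in [ESI+] lies at -0.79.

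The 19 other genes of pyrimidine metabolism, a list of CTP synthases, kinases, salvage enzymes, transporters and thymidylate genes among others, were all tested. In [ESI+] 7 of the 19 passed, where 28.3% of all genes did, and the median log2 fold change of the 19 was -0.10. Of the 7, 2 passed as higher (13.9% of all genes) and 5 as lower (14.5%). The lower ones included DUT1 and FCY1. In hos2Δ 2 passed (7.65% of all genes), in set3Δ (2.50%) and snt1Δ (0.454%) none did with edgeR, and in the test over 5 groups 5 did (29.0%). At an unadjusted p under 0.05 edgeR counted 4 in set3Δ and 1 in snt1Δ, beside 17.8 and 9.41% of all genes, and DESeq2 called URA7 in set3Δ and none in snt1Δ. Medians in hos2Δ, set3Δ and snt1Δ were -0.10, -0.11 and -0.055.

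DUT1, which encodes dUTP pyrophosphatase and keeps uracil out of DNA, had the smallest adjusted p-value of the 19 in [ESI+]. It was at 17.8 and 13.5 CPM in [ESI+] and 35.8 and 43.1 CPM in naive diploids, a log2 fold change of -1.33 ± 0.24 (SE; edgeR, adjusted p = 0.00301). The cytosine deaminase gene FCY1 fell to 51.5 and 48.7 CPM in [ESI+], against 101 and 110 CPM in naive diploids, by 1.07 on the log2 scale (edgeR, adjusted p = 0.0128). FCY1 was the only gene of the 19 with the Ppr1 letters in its 300 bases. The call of DUT1 was lost without [ESI+] replicate 2 (-1.56 to -1.14 over the fits without 1 library). That of FCY1 was lost without either [ESI+] library and without naive replicate 2, with values of -1.14 to -1.03.

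CDD1, a cytidine deaminase gene, was at 4.51 and 3.99 CPM in [ESI+] and 7.30 and 9.27 CPM in naive diploids (-0.95 on the log2 scale, edgeR, adjusted p = 0.0140). Both groups were separate for each of these 3 genes. The nucleoside diphosphate kinase gene YNK1, whose enzyme makes UTP from the product of Ura6, was at 44.8 and 32.8 CPM in [ESI+], 38.6 and 38.0 CPM in hos2Δ, and 69.0 and 75.8 CPM in naive diploids. It fell in both, by 0.90 in [ESI+] (edgeR, adjusted p = 0.00898) and by 0.92 in hos2Δ (edgeR, adjusted p = 0.0230) on the log2 scale. CDD1 was lost without either [ESI+] library and without naive replicate 2 (-1.13 to -0.85). YNK1 was lost in [ESI+] without its replicate 2 (-1.16 to -0.69) and in hos2Δ without either of its libraries (-0.98 to -0.85), and in both without naive replicate 2.

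In [ESI+] the CTP synthase isozymes URA7 and URA8 stood apart from naive in opposite directions. URA8 was at 92.0 and 89.8 CPM in [ESI+] and 142 and 203 CPM in naive diploids (-0.92 on the log2 scale, edgeR, adjusted p = 0.0194). URA7 was at 155 and 147 CPM in hos2Δ and 63.4 and 82.1 CPM in naive diploids (1.06 on the log2 scale, edgeR, adjusted p = 0.0293). In [ESI+] the value of URA7 was 0.69 and missed the threshold (edgeR, adjusted p = 0.0564), as did 0.79 in set3Δ and 0.64 in snt1Δ, and its libraries lay above both naive ones in all 4 groups. The call of URA7 in hos2Δ held in 4 of the 10 fits without 1 library (0.89 to 1.25), namely those that left out a set3Δ or snt1Δ library. That of URA8 was lost without either [ESI+] library and without naive replicate 2 (-1.17 to -0.71).

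The uridine kinase gene URK1, named after its values were seen because it was the last of the 7, was at 16.2 and 12.7 CPM in [ESI+] and 9.91 and 7.55 CPM in naive diploids (0.71 on the log2 scale, edgeR, adjusted p = 0.0431). URK1 passed in 2 of the 10 fits without 1 library (0.47 to 0.93), and not without any of the [ESI+] or naive libraries. With the length trend removed 4 of the 7 passed, URA8, YNK1, FCY1 and DUT1, and with spike-in scaling or without [ESI+] replicate 2 none did.

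**Figure D4:**
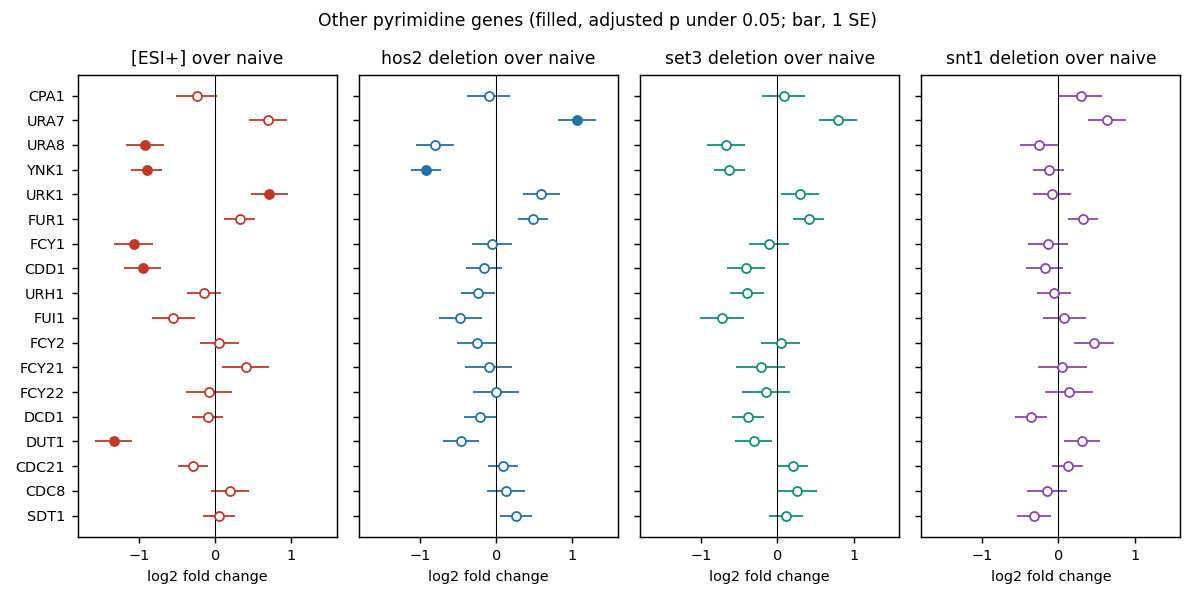
Log2 fold change over naive diploids of 18 other pyrimidine genes in each group, with bars of 1 SE and filled points where the adjusted p was under the 0.05 threshold. Filled points are 6 in [ESI+], with DUT1 lowest at -1.33, 2 in hos2Δ, and 0 in set3Δ and snt1Δ.

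The other auxotrophic markers gave a comparison for URA3. LEU2, an enzyme gene of leucine synthesis deleted in this strain, was at 2.58 and 3.12 CPM in [ESI+], 0.363 and 0.933 CPM in hos2Δ, 1.06 and 1.25 CPM in set3Δ, 1.16 and 0.525 CPM in snt1Δ, and 0.279 and 1.56 CPM in naive diploids. [ESI+] lay above every other library there too, with a log2 fold change over naive of 1.75 ± 0.74 (SE) that missed the threshold (edgeR, adjusted p = 0.0933). The part of the [ESI+] reads at silent genes in it was not tested.

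HIS3, whose allele in this strain lacks an internal stretch and so still gives transcripts, was at 26.1 and 23.9 CPM in [ESI+] and 76.3 and 121 CPM in naive diploids. It fell by 1.98 on the log2 scale (edgeR, adjusted p = 0.00144), and both [ESI+] libraries lay below the 58.0 to 169 CPM of all others. LYS2 and MET17 (MET15), each intact on 1 copy, had log2 fold changes of 0.30 and 0.28 in [ESI+] and passed in no group. The fall of HIS3 passed in all 10 fits without 1 library, and not under spike-in scaling.

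Genes next to the URA3 locus were read in all groups. On the left lie RIP1, YEL023C and GEA2, and on the right TIM9, PXP1 and MMS21. GEA2, a guanine nucleotide exchange factor gene, rose to 35.4 and 37.0 CPM in [ESI+], against 19.0 and 16.0 CPM in naive diploids (1.04 on the log2 scale, edgeR, adjusted p = 0.00356). TIM9, of the mitochondrial import machinery, fell to 5.78 and 5.93 CPM in [ESI+], against 11.5 and 11.4 CPM in naive diploids (-0.97, edgeR, adjusted p = 0.00680), and shares reads with another target. Their coding lengths of 4380 and 264 bases stand in the longest and the shortest class of the length trend given above, and neither call held with that trend removed. The call of GEA2 was lost without naive replicate 2 (0.86 to 1.16 over the fits without 1 library), and that of TIM9 without [ESI+] replicate 2 (-1.05 to -0.96).

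RIP1, the Rieske subunit gene of respiratory complex III, was at 33.6 and 28.6 CPM in [ESI+], 23.4 and 28.1 CPM in hos2Δ, 26.8 and 22.9 CPM in set3Δ, 58.6 and 43.9 CPM in snt1Δ, and 46.8 and 54.7 CPM in naive diploids. It fell by 0.70 in [ESI+], by 0.98 in hos2Δ and by 1.02 in set3Δ on the log2 scale (edgeR, adjusted p = 0.0275, 0.0204 and 0.0298), and not in snt1Δ. In [ESI+] it was 0.16 under spike-in scaling and 0.092 in log2(TPM + 1), where the medians of all genes were 0.80 and 0.74. The [ESI+] call did not hold once the length trend was removed (-0.48, edgeR, adjusted p = 0.0848) or with silent-gene subtraction (-0.58, edgeR, adjusted p = 0.0526), while those in hos2Δ and set3Δ held under both. Its calls held in 7 of the 10 fits without 1 library in [ESI+] and in hos2Δ and in 2 of 10 in set3Δ, and in none of the 3 without naive replicate 2. YEL023C, PXP1 and MMS21 passed in no group.

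**Figure D5:**
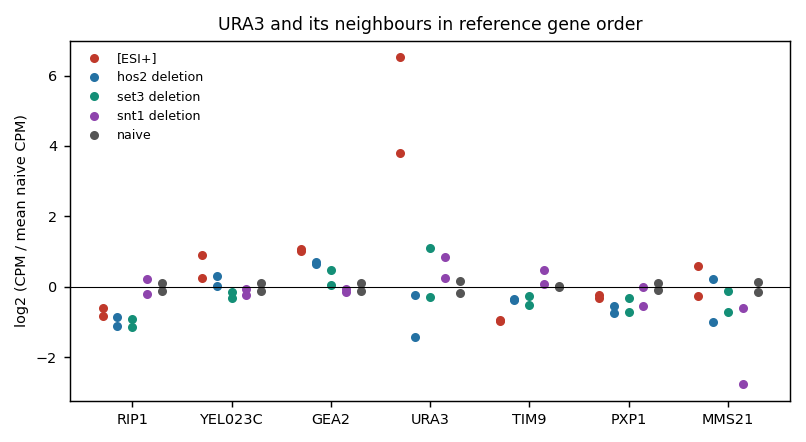
Log2 ratio of each library's CPM to the mean naive CPM for URA3 and the 3 annotated genes on either side of it, in reference order, with 1 point per library. Both [ESI+] points of URA3 stand above all others, while the [ESI+] points of its neighbours stay within about 1 log2 unit of naive.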

How the data were processed

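Per the labels' protocols, total RNA was extracted with hot acid phenol, ERCC RNA was added, and complementary DNA primed from poly(A) on beads was sheared and read as paired ends. Strand use is not given in the sources used here. The deposited values are the authors' estimated counts and TPM per target, from kallisto 0.44 and build R64, per the submitters' processing notes and the file headers. Counts were rounded, spike-ins set aside, and genes filtered with filterByExpr, leaving 6390. edgeR 4.0.16 (R 4.3.3) fitted a robust quasi-likelihood model with TMM normalization, 1 coefficient per group and all 10 libraries, and tests were two-sided with Benjamini-Hochberg adjustment at 0.05. SEs are the absolute log2 fold change divided by the root of F. Total counts per library were 8327730 to 80651800. The fit was tested on counts simulated from its own estimates, which cannot show the effect of the library differences described above.

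Members and lists were chosen with earlier results of these data known. Named were the 9 members, up to 6 other pyrimidine genes per comparison by smallest adjusted p, the markers, 3 neighbours on each side of URA3 and the 5 nearest profiles to URA3 and to the mean of URA1 and URA4. Alternatives were DESeq2 1.42.0, RLE and spike-in library sizes, limma-trend (limma 3.58.1) on log2(TPM + 1), other filters, fits of 2 groups, a replicate block, silent-gene subtraction, a length trend (loess, span 0.5) and leaving out each library. Of 6007 coding targets, 94.4% had their length in the R64 annotation. Sequences are from RefSeq's R64 genome. With no promoter or protein table used here, 300 bases before start codons and coding sequences (Biopython 1.88) took their place. 1 result among the other pyrimidine genes is counted in the totals and not reported here.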

Additional observations from a re-analysis of the deposited data

How the results depend on the processing

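In [ESI+] over naive, the pathway genes passing numbered 3, and 1 with spike-in library sizes (URA3). They numbered 1 with a filter at a mean of 10 CPM (URA6, since URA3 and PPR1 were filtered out) and 1 with silent-gene subtraction (URA3). With limma-trend on log2(TPM + 1) 5 passed, namely URA1, URA3, URA4, URA5 and PPR1. URA3 passed in 9 of the 10 fits without 1 library, not without naive replicate 2, and not in the fit of the 2 groups alone. URA6 passed in 3 and PPR1 in 2 of those 10 fits. The [ESI+] log2 fold change of URA6 was 0.12 with spike-in sizes and 0.042 with limma-trend, and that of RIP1 0.16 and 0.092, where the median of all genes was 0.80 and 0.74. With the length trend removed 2 pathway genes passed, URA3 and URA2. Other pyrimidine genes passing in [ESI+] numbered 7, and 0 with spike-in sizes, 4 with the length trend removed, and 0 to 9 without 1 library. In hos2Δ they numbered 2, and 0 with spike-in sizes, 1 with limma-trend, and 0 to 3 without 1 library. In set3Δ they numbered 0, and 1 with DESeq2 (URA7), 2 in the fit of 2 groups and 0 to 2 without 1 library, and in snt1Δ 0 to 1. In the test over 5 groups the pathway genes numbered 2, and 5 with DESeq2, 1 with spike-in sizes, 0 with the 10 CPM filter, 5 with limma-trend, 1 with subtraction and 1 to 2 without 1 library. The other genes numbered 5 there, and 8 with DESeq2, 0 with spike-in sizes, 3 with subtraction and 0 to 9 without 1 library. The causes were not tested.

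With the replicate block, 3 pathway genes passed in [ESI+], while other pyrimidine genes numbered 1 in set3Δ (URA7) and 8 over the 5 groups, and all genes 848 in hos2Δ, 403 in set3Δ and 59 in snt1Δ. Deviations of same-numbered libraries from their group means correlated with those of naive at -0.0291 in [ESI+], 0.315 in hos2Δ, 0.0261 in set3Δ and 0.468 in snt1Δ across genes, and the labels tie nothing to the number, so the numbers were not taken as pairs.

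All genes passing numbered 1810 in [ESI+], and 32 with spike-in sizes, 2837 with limma-trend and 275 to 2501 without each library in turn. They numbered 489 in hos2Δ, and 747 with DESeq2, 5 with spike-in sizes, 142 with limma-trend and 26 to 968 without 1 library. In set3Δ they were 160, and 399 with DESeq2, 3 with spike-in sizes, 49 with limma-trend, 544 in the fit of 2 groups and 7 to 529 without 1 library. In snt1Δ they were 29, and 99 with DESeq2, 3 with spike-in sizes, 19 with limma-trend, 11 in the fit of 2 groups and 18 to 320 without 1 library. Over the 5 groups they were 1851, and 105 with spike-in sizes, 2803 with limma-trend and 302 to 3311 without 1 library. The shares of all genes given beside the counts rest on these totals. With 2 libraries a group, fits without 1 library assume that the lone one varies like the others. URA3 outside [ESI+] rests on 2 to 43 reads a library.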
